A study of Mus musculus with 3 samples.

Results

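Genes of glucose uptake and glycolysis control were examined in sorted AT2 cells, which make lung surfactant and renew the alveolar lining, after intermittent cigarette smoke (CS), continuous CS or air. The 10 genes were chosen for their roles in the pathway, and all 10 were found by gene symbol among the 19572 transcript clusters with a symbol (22206 clusters in all). Each had 1 cluster, a set of probes that the array assigns to a gene. Cells came from female Sftpc/GFP mice of mixed CBA/Ca and C57BL6J background, 9 to 11 weeks old, in which AT2 cells carry strong green fluorescent protein (GFP) and some cells of the terminal airways carry weak GFP. In a 5-week protocol, both smoke groups inhaled mainstream CS in 3 weeks, for 60 minutes on 5 days a week, and were killed 24 hours after the last session. The intermittent CS weeks alternated with air weeks, the continuous CS weeks came one after another at the end, and control mice breathed air. For each exposure, cells with high GFP and high EpCAM, a surface marker of epithelium, were pooled from 3 mice, and 100 ng of RNA went to 1 array.

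Glycolysis turns glucose into pyruvate, and cells set its pace at a few steps: entry across the membrane, trapping by hexokinase, the phosphofructokinase reaction, and the fate of pyruvate. Pyruvate either enters mitochondria through pyruvate dehydrogenase or is reduced to lactate and exported. Oxidation of fatty acids feeds the same mitochondrial cycle, so both pathways compete as fuel. In AT2 cells glucose also supplies carbon for surfactant lipids.

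Between the smoke arrays, the lactate exporter gene Slc16a3 and the glucose transporter gene Slc2a1 were the members farthest apart, with intermittent CS below continuous CS by 2.02-fold and 1.51-fold. For continuous CS against air, the member with the largest difference was Pfkfb3, which makes the activator of phosphofructokinase and exceeded air by 2.35-fold. For intermittent CS against air it was Slc16a3, 1.87-fold below air, followed by Pfkp, 1.75-fold below, and Pfkfb3, 1.69-fold above. Pkm and Ldha, the pyruvate kinase and lactate dehydrogenase genes at the end of the pathway, differed by at most 1.25-fold between any arrays. With 1 pooled sample per exposure these differences have no replicate error and no test was possible. As a guide to the spread without signal, the 1414 clusters of olfactory and vomeronasal receptor genes, whose products sense odors, were used. Between intermittent and continuous CS, 99% of them lay within 0.75 on the log2 scale, between intermittent CS and air within 0.81, and between continuous CS and air within 0.89. Their 95th percentile, taken as the background level, was 5.14 with intermittent CS, 5.15 with continuous CS and 5.19 with air, and all 10 members lay above it on every array.

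Values of the 3 arrays were comparable in scale, with medians of 5.66, 5.70 and 5.68 with intermittent CS, continuous CS and air, and the median difference over all clusters was 0 for each pair. Exactly equal values are common in the deposited data: 27.5% of clusters held the same value on both smoke arrays. The label of the sort was checked against 10 AT2 markers, which lay between 17.9 and 19.9 on every array, with 4 of them (Sftpc, Sftpa1, Sftpb and Slc34a2) at the ceiling of 19.93 on all arrays, where no difference can show. Markers of other cells were also detected, among them the leukocyte gene Ptprc at 10.20, 10.41 and 10.92 and the endothelial gene Pecam1 at 8.99, 9.96 and 8.93 with intermittent CS, continuous CS and air. In RNA of pooled cells, fewer cells of a type cannot be told apart from less RNA per cell.

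The sequences just before the members' start sites are shown because several of these genes are textbook targets of hypoxia-inducible factor (HIF). HIF binds DNA at a short core, of which only the form ACGTG was searched here, not the form GCGTG. All 10 members had an entry in the RefSeq promoter sequences of assembly GRCm38.p6, with 15 start sites among them. The core, on either strand, was searched in the 250 bases before each start. It was found for 6 of the 10 genes (Slc2a1, Hk2, Pfkfb3, Pkm, Ldha and Slc16a3), and in 18.5% of the 27025 genes with a promoter entry. Of the windows themselves, 7 of 15 held it, against 16.6% of all 32851 windows. The palindrome CACGTG (E-box), which holds the core on both strands, was found for Ldha and Pfkfb3 and in 6.86% of all genes. The 100 bases before the start are printed 5′ to 3′ on the gene's strand for the 4 genes farthest below continuous CS on the intermittent CS array and for Ldha, the member with the largest difference the other way. Capitals mark the core or its reverse complement CACGT.
Slc16a3, chr11:120948967-120949066, plus strand: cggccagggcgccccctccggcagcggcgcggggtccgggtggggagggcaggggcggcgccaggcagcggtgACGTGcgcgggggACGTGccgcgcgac
Slc2a1, chr4:119108645-119108744, plus strand: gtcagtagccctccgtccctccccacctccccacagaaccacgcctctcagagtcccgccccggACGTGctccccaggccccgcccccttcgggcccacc
Hk2, chr6:82774455-82774554, minus strand: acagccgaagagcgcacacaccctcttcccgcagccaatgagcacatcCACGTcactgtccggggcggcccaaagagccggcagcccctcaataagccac
Pfkfb3, chr2:11553930-11554029, minus strand: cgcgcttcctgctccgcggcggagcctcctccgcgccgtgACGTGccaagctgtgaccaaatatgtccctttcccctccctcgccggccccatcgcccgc
Pfkfb3, other start, chr2:11502091-11502190, minus strand: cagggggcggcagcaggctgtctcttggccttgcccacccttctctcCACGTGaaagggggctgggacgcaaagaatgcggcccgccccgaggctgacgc
Ldha, chr7:46845704-46845803, plus strand: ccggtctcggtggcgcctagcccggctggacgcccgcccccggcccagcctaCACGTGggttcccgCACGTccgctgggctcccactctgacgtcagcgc

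In Slc16a3 the pair of cores begins 27 and 14 bases before the start, and in Slc2a1 the single core begins 36 bases before it. Outside the stretches printed, Hk2 has a further match 226 bases before its start and Ldha a further E-box 145 bases before its start. A second annotated start of Ldha, not printed, had no match. Hk1, Pfkp, Pfkl and Pdk1 had no match in these windows, which says only that these letters are not there. The form GCGTG, not searched, occurs in the 100 bases before a start of each of these genes, so they are not shown to lack a core. A match is not a measured binding site, and the arrays carry no measure of HIF binding.

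Slc2a1 encodes GLUT1, the transporter that carries glucose across the cell membrane. Its log2 value was 11.14 with intermittent CS, 11.73 with continuous CS and 11.69 with air. The intermittent CS array was thus the low one, by 0.59 against continuous CS and by 0.55 against air, while continuous CS minus air was 0.037. Among the clusters above background on either smoke array, 4.94% were at least as far apart as Slc2a1 in that comparison. Its difference stayed inside the range of the receptor clusters.

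The hexokinases Hk1 and Hk2 phosphorylate glucose and so hold it in the cell, Hk2 being the inducible form. Hk2 was at 10.08 with intermittent CS, 10.62 with continuous CS and 9.82 with air. The continuous CS array was the highest, at 1.75-fold above air, and intermittent CS lay between them, 1.45-fold below continuous CS and 1.20-fold above air. Hk1 had the opposite order, at 11.36, 11.22 and 11.57 with intermittent CS, continuous CS and air. Its largest difference was -0.35, for continuous CS minus air. Of the other hexokinase genes, Hk3, the isoform of myeloid cells, was at 6.15, 5.82 and 6.04, and Hkdc1 was at 7.22, 7.18 and 7.19 in the same order.

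Phosphofructokinase makes the first step that commits sugar to glycolysis. Pfkp, its platelet-type subunit, was at 7.94 with intermittent CS, 8.09 with continuous CS and 8.75 with air. Both smoke arrays were below the air array, by 1.75-fold with intermittent CS and 1.59-fold with continuous CS. Pfkl, the liver-type subunit, stood the other way, at 9.91, 9.88 and 9.60, which was 1.24-fold and 1.22-fold above air. The muscle-type subunit Pfkm was at 6.71 with intermittent CS and with air, and at 7.05 with continuous CS.

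Pfkfb3 makes a fructose bisphosphate that activates phosphofructokinase, and of its family it is the one most given to making rather than breaking it. Its value was 7.14 with intermittent CS, 7.62 with continuous CS and 6.38 with air. Both smoke arrays exceeded the air array, by 0.76 and 1.23 on the log2 scale, and the difference between continuous CS and air lay outside the receptor range of 0.89. Among clusters above background on either of those arrays, 1.36% were at least as far apart. With an offset of 32 on the linear scale the difference was 0.98, just under 2-fold. Between the smoke arrays Pfkfb3 was 1.39-fold lower with intermittent CS. Its relative Pfkfb4 was at 13.08, 13.00 and 12.61 with intermittent CS, continuous CS and air.

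Of 10832 clusters with a symbol and above background on all arrays, the 3 whose pattern across the arrays was nearest to that of Pfkfb3 were Tnfaip3, the glutamine transporter gene Slc1a5 and the complement gene C1s1. Likeness was the Euclidean distance of the 3 log2 values, each gene centred on its own mean, and was 0.067, 0.079 and 0.092. Tnfaip3, an inhibitor of NF-kappaB signaling, was at 12.22 with intermittent CS, 12.64 with continuous CS and 11.37 with air. With 3 arrays many genes share a pattern, so this is a description only.

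Pkm encodes the pyruvate kinase of most tissues, whose splice forms the single cluster does not separate. Its value was 14.51 on both smoke arrays, exactly equal, and 14.63 with air. Ldha, the subunit of lactate dehydrogenase that favors lactate formation, was at 15.54 with intermittent CS, 15.23 with continuous CS and 15.55 with air. Continuous CS was the low array, and intermittent CS and air were within 0.011 of each other in size, with intermittent CS the lower. Ldhb, the subunit that favors pyruvate formation, was at 9.52, 9.44 and 10.16 in the same order, 1.56-fold and 1.65-fold below air.

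Slc16a3 encodes MCT4, which exports lactate from strongly glycolytic cells. Its value was 6.03 with intermittent CS, 7.04 with continuous CS and 6.93 with air. The intermittent CS array stood apart, 1.01 below continuous CS and 0.90 below air, and both differences lay outside the receptor ranges. Among clusters above background on either smoke array, 1.18% were at least as far apart as Slc16a3. It was the member nearest to the background, 0.89 above it with intermittent CS. The 2-fold call was not kept by median centring (-0.97), by quantile normalization (-0.97) or with the offset of 32 (-0.75). Other monocarboxylate transporters had another order, with intermittent CS the highest: Slc16a1 (MCT1) was at 11.46, 11.21 and 10.82, and Slc16a7 (MCT2) at 12.57, 12.48 and 11.17, with intermittent CS, continuous CS and air. Between the smoke arrays Slc16a1 and Slc16a7 differed by only 0.25 and 0.0945, inside the receptor range of 0.75. Slc16a7 was 2.63-fold above air with intermittent CS and 2.47-fold with continuous CS.

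Pdk1 encodes a kinase that switches off pyruvate dehydrogenase and so keeps pyruvate out of mitochondria. It was at 9.23 with intermittent CS, 9.37 with continuous CS and 9.09 with air, a largest difference of 0.28. Pdk2 was at 13.37, 13.26 and 12.98 and Pdk3 at 7.66, 7.55 and 7.66, while Pdk4 lay below the background on all arrays. Pdp1 and Pdp2 encode the catalytic subunits of the phosphatase that reverses the kinases. Pdp1 was at 6.60 with intermittent CS, 6.89 with continuous CS and 7.51 with air, 1.87-fold and 1.53-fold below air on the smoke arrays, and the continuous CS difference, -0.61, was inside the receptor range. Pdp2 lay below the background with intermittent CS, at 4.70, and was at 5.37 with continuous CS and 6.39 with air. It was at least 2.37-fold lower with intermittent CS than with air, set against the background level, and 2.02-fold lower with continuous CS than with air. Pdpr, the regulatory subunit, was at 7.64 with intermittent CS and at 7.09 on both other arrays.

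**Figure D1:**
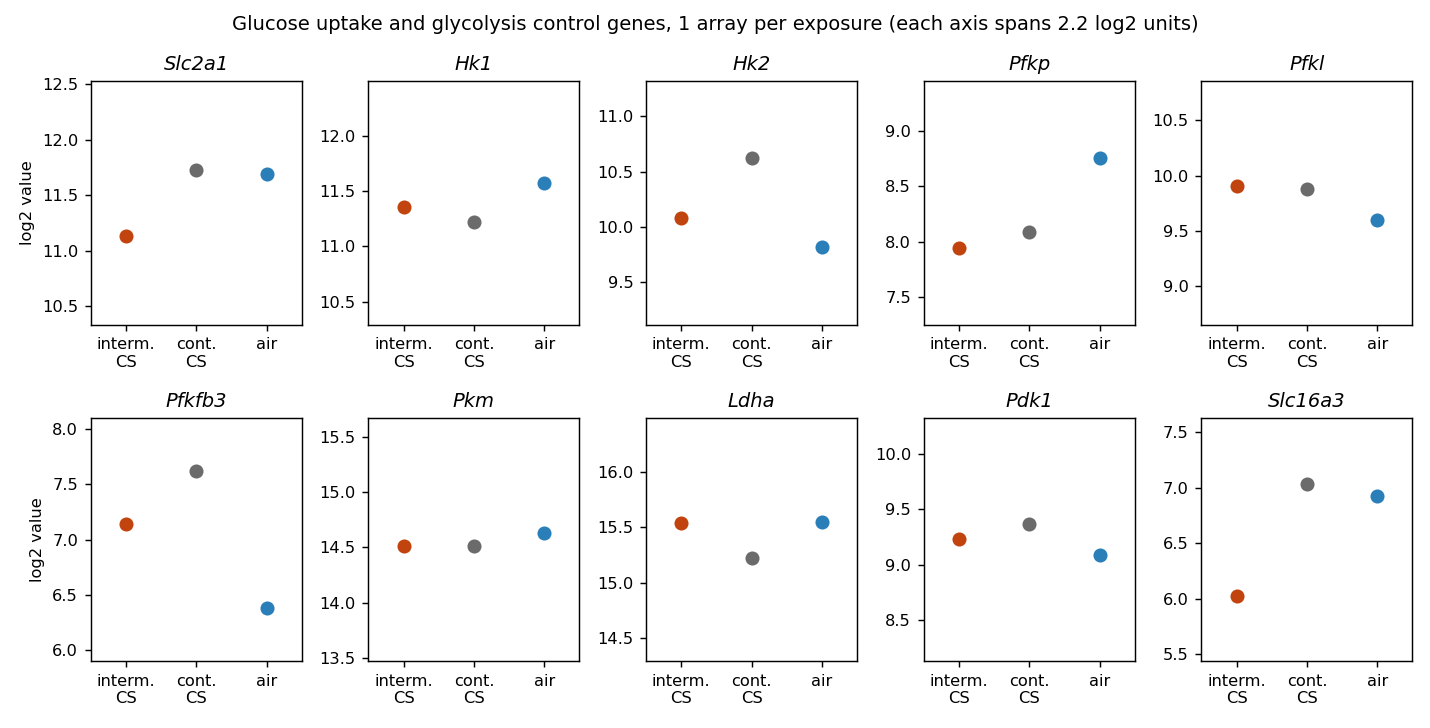
Log2 value of each of the 10 genes (vertical axis, the same span in every panel) on the intermittent CS, continuous CS and air arrays, 1 point per array. Slc2a1 and Slc16a3 are low on the intermittent CS array alone, at 11.14 and 6.03, while Hk2 and Pfkfb3 peak on the continuous CS array, at 10.62 and 7.62.

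The continuous CS array held the highest value for 5 of the 10 members (Slc2a1, Hk2, Pfkfb3, Pdk1 and Slc16a3), the air array for 4 (Hk1, Pfkp, Pkm and Ldha) and the intermittent CS array for Pfkl. The lowest value was on the intermittent CS array for 3 members (Slc2a1, Pfkp and Slc16a3), on the continuous CS array for 2 (Hk1 and Ldha) and on the air array for 4, while Pkm was tied between the smoke arrays.

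For intermittent against continuous CS, 1 of the 10 members, Slc16a3, was at least 2-fold apart, where 0.752% of all clusters were, and 1.19% of those above background on either array. At 1.5-fold or more there were 2, Slc16a3 and Slc2a1, both lower, against 3.93% of all clusters and 5.06% of those above background. The median log2 difference over the members was -0.14, with 6 below 0, 3 above and Pkm equal. The differences of Hk1, Pfkp, Pfkl, Pkm and Pdk1 were smaller than 1 standard deviation of the receptor clusters, 0.23.

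For intermittent CS against air, none of the 10 was 2-fold apart, where 1.55% of all clusters were, and 2.55% of those above background. At 1.5-fold or more, Pfkfb3 was higher and Pfkp and Slc16a3 were lower, 3 of 10, against 6.76% of all clusters and 9.73% of those above background. The median was -0.064. For continuous CS against air, Pfkfb3 alone passed 2-fold and was higher, 1 of 10, where 1.6% of all clusters and 2.67% of those above background were 2-fold apart. At 1.5-fold or more, Pfkfb3 and Hk2 were higher and Pfkp was lower, against 6.53% and 9.42% of clusters. The median was 0.074. Both comparisons share the air array.

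**Figure D2:**
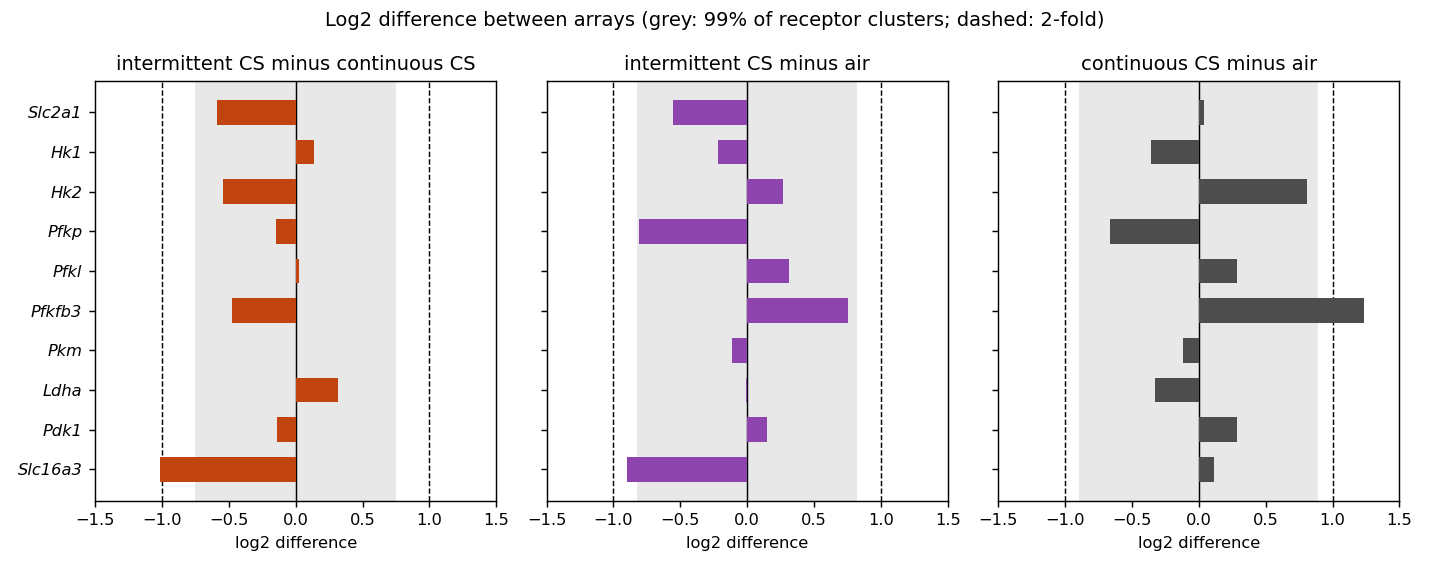
Log2 difference of each gene (horizontal axis) for intermittent CS minus continuous CS, intermittent CS minus air and continuous CS minus air, with 1 array per exposure and no error bars. The grey band holds 99% of the receptor clusters and dashed lines mark 2-fold: Slc16a3 leaves the band in both comparisons of intermittent CS and Pfkfb3 leaves it for continuous CS minus air.

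Of 20 other enzymes of glycolysis listed, 16 were measured. None was 1.5-fold apart between intermittent and continuous CS, a count near the share of all clusters, 3.93%, and the median was 0.00, as over all clusters. The aldolase isoform gene Aldoc, at 10.31 with intermittent CS, 10.80 with continuous CS and 9.45 with air, had the same order as Pfkfb3 and Hk2, and its continuous CS value was 2.55-fold above air. Gapdh was at 17.24, 17.03 and 16.63, 1.53-fold above air with intermittent CS. Neither Pklr, the pyruvate kinase of liver and red cells, nor Slc2a3 and Slc2a4, further glucose transporters, lay above the background on any array.

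Among 16 other transporters of hexoses, lactate and pyruvate, none was 1.5-fold apart between the smoke arrays, a count near the share of all clusters, 3.93%. With intermittent CS 2 were at least 2-fold above air, Slc16a7 and Slc2a2, where 1.55% of all clusters were 2-fold apart. Slc2a2 (GLUT2), the transporter of liver and pancreatic islets, was at 6.65 with intermittent CS, 6.26 with continuous CS and 5.33 with air, the last value close to the background of 5.19. Slc2a2 was thus highest on the array where Slc2a1 was lowest. Emb, which escorts monocarboxylate transporters to the membrane, was at 15.25, 14.84 and 15.14. Among 9 genes that counter glycolysis or set its bisphosphate switch, none was 1.5-fold apart between the smoke arrays, likewise near the share of all clusters. G6pc3, a glucose phosphatase subunit of most tissues, lay 2.08-fold above air with intermittent CS and 2.40-fold with continuous CS. Pcx, which turns pyruvate into oxaloacetate, lay 1.90-fold and 1.59-fold above air in the same order. Fbp2 was below the background with air and at least 1.69-fold higher on either smoke array.

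Of 15 regulators of glycolysis, the mitochondrial channel gene Vdac1, to which hexokinase docks, was 2.12-fold above air with intermittent CS and 1.69-fold with continuous CS. Hif1a was at 12.98 on both smoke arrays and 12.94 with air. Myc, a transcription factor that raises glycolytic genes, was at 9.82 with intermittent CS, 10.29 with continuous CS and 9.66 with air, with continuous CS the highest as in Hk2. The kinase gene Akt2 was at 11.07, 10.72 and 10.44, and Arrdc4, an arrestin-like gene that limits glucose uptake, at 8.53, 8.61 and 8.06. Of 18 HIF targets outside glycolysis, 1, Egln3, was 2-fold apart between the smoke arrays as measured, where 0.752% of all clusters were. Egln3 lay above the background with continuous CS alone, so it was at least 1.25-fold lower with intermittent CS. The list's median was 0.00 in all 3 comparisons, and the angiogenic factor Vegfa was at 14.35, 14.46 and 14.52 with intermittent CS, continuous CS and air. The prolyl hydroxylase subunit P4ha1 was at 12.40, 12.30 and 12.84, Higd1a at 9.24, 8.94 and 9.61, and Mxi1 at 8.12, 7.68 and 7.61.

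On the fatty acid side, Cpt1a, which admits long-chain fatty acids to mitochondria, was at 11.26 with intermittent CS, 9.59 with continuous CS and 8.57 with air. The carnitine carrier gene Slc25a20 was at 9.82, 8.86 and 8.79, Eci2 at 12.95, 12.08 and 11.36, and Acadl at 11.94, 11.33 and 10.92. Between the smoke arrays 5 of 17 measured oxidation genes were at least 1.5-fold higher with intermittent CS and none was lower. Of the glycolysis members 2 of 10 were lower and none was higher, where 3.93% of all clusters were 1.5-fold apart in either direction. Outside the receptor range lay 3 of the oxidation genes and 1 of the members. Within 1 standard deviation of the receptor clusters were 11 and 5. Of clusters above background on either smoke array, 2.65% were at least as far apart as the endothelial gene Cldn5, at -0.76, just outside the range. At least as far apart as the HIF target Ero1l, at 0.235, just over 1 standard deviation (0.23), were 26.1%. The paper had picked out Cpt1a from these same arrays. It also reported stronger Cpt1a immunostaining in sorted AT2 cells after intermittent CS than after continuous CS or air. In its colony assays, the Cpt1a inhibitor etomoxir lowered colony formation after intermittent CS but not after continuous CS. The medians were 0.050 for fatty acid oxidation and -0.14 for the members. The difference between the lists was not tested.

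**Figure D3:**
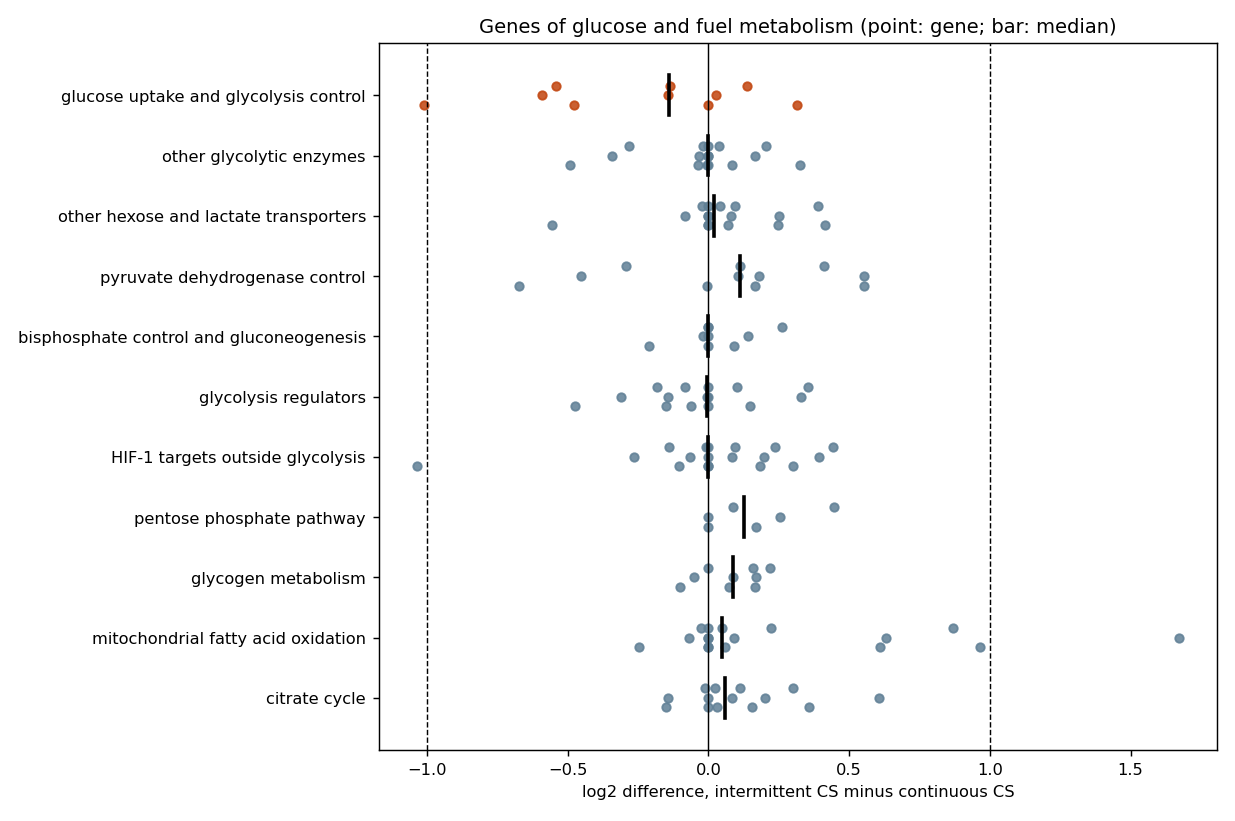
Log2 difference, intermittent CS minus continuous CS (horizontal axis), for each measured gene of the lists of glucose and fuel metabolism, with a bar at each list's median and dashed lines at 2-fold. The 10 members reach down to -1.01 for Slc16a3 and up to 0.32 for Ldha, while fatty acid oxidation reaches up to 1.67 for Cpt1a.

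Markers of other cells differed between the arrays in the same direction as some members. All 9 measured neutrophil markers and all 10 pan-leukocyte markers were lower with intermittent than with continuous CS. At least 2-fold apart as measured were 5 and 3 of them, where 0.752% of all clusters were. The summed linear level of the neutrophil markers, on the log2 scale, was 9.34 with intermittent CS, 10.76 with continuous CS and 10.22 with air, and 4 of the 9 (Cxcr2, Clec4d, Mmp8 and Mmp9) lay below the background with intermittent CS. That of the pan-leukocyte markers was 15.43, 15.68 and 15.41, with only Cd48 below the background on any array. The highest of them, Lcp1, was at 15.10, 15.14 and 14.79 and weighs most in that sum. Against air, 8 of the 10 were lower with intermittent CS, 1 was higher and 1 equal, with a median of -0.56. By at least 1.5-fold, 5 were lower and none higher, where 6.76% of all clusters were that far apart. Of 8 measured markers of alveolar macrophages, 6 had an intermittent CS value below continuous CS, none by 2-fold, at summed levels of 12.69, 13.04 and 12.69, with Marco and Fabp1 below the background throughout. Slc16a3 and Slc2a1 were lowest with intermittent CS and highest with continuous CS, an order shown by 7 of the 9 neutrophil markers, 5 of the 10 pan-leukocyte markers, 3 of the 8 macrophage markers and 6 of the 10 endothelial markers. S100a8, for example, was at 6.04, 7.79 and 7.64 with intermittent CS, continuous CS and air, whereas Ptprc was highest with air and Coro1a was equal with intermittent CS and air. Among markers taken up below, the order was shown by 2 of the 9 of AT1 cells and 1 of the 8 of club cells. It was shown by 3 of the 9 smooth muscle and fibroblast markers and 0 of the 10 AT2 markers. The share of all clusters in this order was not computed. The part of leukocyte RNA in the Slc16a3 and Slc2a1 differences was not tested.

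All 10 endothelial markers were highest with continuous CS, and 5 of them exceeded intermittent CS by at least 2-fold, as 5 exceeded air. Of all clusters, 0.752% and 1.6% were 2-fold apart in these comparisons. The summed level of the endothelial markers was 13.06 with intermittent CS, 14.31 with continuous CS and 13.17 with air, and none was below the background. Of 9 measured markers of AT1 cells, through which gas exchange takes place, 7 had an intermittent CS value below continuous CS, and 8 had a continuous CS value above air, with summed levels of 18.57, 18.68 and 18.44 with intermittent CS, continuous CS and air. By at least 1.5-fold, 6 were lower with intermittent than with continuous CS, and 5 higher with continuous CS than with air. None went that far the other way. Of all clusters, 3.93% and 6.53% were 1.5-fold apart in these comparisons. The highest AT1 marker, Ager, was at 18.23, 18.3 and 18.08 with intermittent CS, continuous CS and air and weighs most in that sum. Of 9 measured smooth muscle and fibroblast markers, 6 had a continuous CS value above air, with summed levels of 12.59, 13.81 and 13.20 in the same order and Tagln and Lum below the background throughout. The highest of them, Vim, was at 12.42, 13.69 and 13.11 and weighs most in that sum. Between the smoke arrays, 4 of the 9 were equal and 5 were lower with intermittent CS. Of 8 measured markers of club cells, secretory cells of the small airways, 6 had a continuous CS value above air. At least 2-fold above air were 3, where 1.6% of all clusters were 2-fold apart. Summed levels were 19.99, 20.01 and 19.83, and none of the 8 was below the background. The highest of the 8, Scgb1a1, was equal on all arrays, at 19.61, and weighs most in that sum. Hk2 and Pfkfb3 were highest with continuous CS, as were the endothelial markers. For intermittent CS minus air, Hk2 was at 0.27 and Pfkfb3 at 0.76. The marker medians in that comparison were -0.027 for endothelial, 0.020 for AT1, 0 for smooth muscle and fibroblast, and 0.14 for club cells. The part of these cells in the Hk2 and Pfkfb3 differences was not tested. Of the 10 AT2 markers, 4 were at the ceiling, so their equality says nothing of the AT2 share, and among the others the largest difference between the smoke arrays was 0.36, for Abca3.

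**Figure D4:**
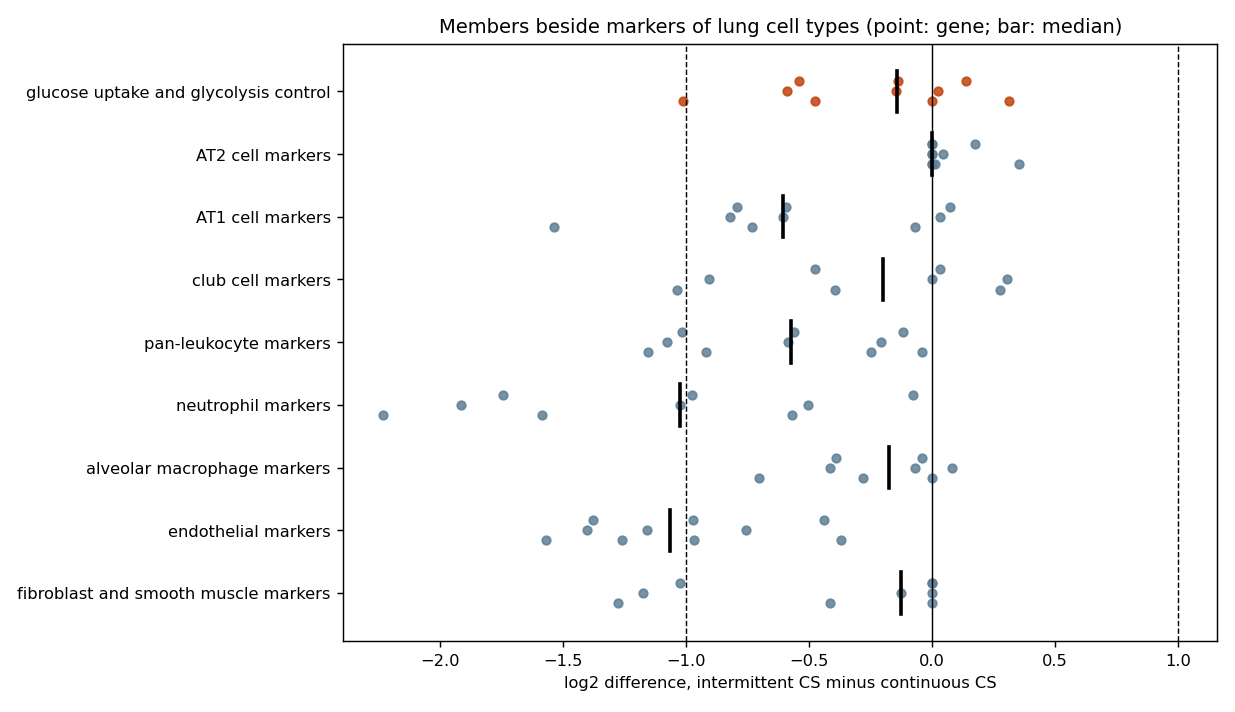
Log2 difference, intermittent CS minus continuous CS (horizontal axis), for the 10 members beside markers of lung cell types, with a bar at each list's median and dashed lines at 2-fold. The medians of neutrophil and endothelial markers are -1.03 and -1.07 and Slc16a3 is at -1.01, while for intermittent CS minus air, not plotted, they are -0.68, -0.027 and -0.90, and 4 AT2 markers lie at 0 because they are at the ceiling.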

How the data were processed

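RNA of AT2 cells pooled per exposure was hybridized to GeneChip Clariom S arrays, 1 each for intermittent CS, continuous CS and air, and exposures were taken from the sample labels. Expression was computed by the authors in the Transcriptome Analysis Console, and the deposited table holds 1 log2 value for each transcript cluster on each array. The software version, the summarization, the normalization and the array's genome build were not given in the sources used here. Values were used as deposited. Symbols came from the platform annotation, with 1 gene found through a RefSeq synonym. Of 222 genes in 10 pathway and 8 marker lists, 204 were measured, and the others were not analysed here. Differences between arrays were taken per cluster, and with 1 array per exposure no test was made. The number of arrays limits the precision. The members and lists were chosen with earlier results of these data known. Named genes are the members, other isoforms of their steps, the 4 genes of each pathway list with the largest absolute difference among those above background on an array, genes at least 2-fold apart, and the 3 clusters most like the member with the largest difference. Hif1a, Vegfa and single marker genes fall outside this rule and were chosen after their values were known. Alternative settings comprised median centring, quantile normalization, cyclic loess, an offset of 32, a floor at the receptor background, a filter at the array median, the mean over clusters or members, and 1.5-fold in place of 2-fold. Motif matches were counted by exact letters. Scalings were computed with limma 3.58.1 in R 4.3.3, and all else in Python 3.11.15 (pandas 2.3.3, numpy 2.4.6, matplotlib 3.10.9). The steps were tested on simulated data.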

Additional observations from a re-analysis of the deposited data

Results flagged for a closer look

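For 2 members the smoke arrays lay on opposite sides of the air array, a difference between exposures that was not tested. Slc16a3, the lactate exporter gene, differed from air by -0.90 on the log2 scale with intermittent CS and by 0.11 with continuous CS. Slc2a1, the glucose transporter gene, differed from air by -0.55 with intermittent CS and by 0.037 with continuous CS. Both differences of continuous CS from air were smaller than 1 standard deviation of the receptor clusters, 0.25, and both comparisons share the air array.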

How the results depend on the processing

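Under the alternatives, 208 of 210 member differences moved by less than 1 standard deviation of the receptor clusters, as did all 24 medians over the members. The other 2 came with an offset of 32, which draws low values together: Slc16a3 at -0.75 for intermittent minus continuous CS and Pfkfb3 at 0.98 for continuous CS minus air. The floor, the filter at the array median and the mean over clusters could not move any member. Each member had 1 cluster, above the background and the array medians, so the unchanged values under these settings say nothing of stability. They are included in the 208 differences and the 24 medians. The count of members 2-fold apart between the smoke arrays was 0 with median centring, 0 with quantile normalization and 0 with the offset, in place of 1. For continuous CS against air it was 0 with the offset, in place of 1. At 1.5-fold the counts were 2 for intermittent against continuous CS, 3 for intermittent CS against air and 3 for continuous CS against air. No paired analysis was possible because each exposure has 1 array. Exposure cannot be told apart from anything else that differed between the pools of cells, and no difference has a replicate error. Depth in the sense of signal over background was least for Slc16a3, 0.89 above the background level with intermittent CS.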

Other observations

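Of 6 measured genes of the pentose phosphate pathway, which makes NADPH and ribose, none was 1.5-fold apart in any comparison, where 3.93% to 6.76% of all clusters were, so the count is near that of clusters in general, and the median log2 difference for intermittent minus continuous CS was 0.13. Rpe, the ribulose phosphate epimerase gene, had the largest difference between the smoke arrays, at 10.62 with intermittent CS, 10.17 with continuous CS and 10.34 with air. H6pd, which makes NADPH in the endoplasmic reticulum, was at 13.23, 13.06 and 12.71 in the same order. Rpia was at 7.26 with intermittent CS and 6.83 with air, and Pgd at 11.05, 10.97 and 11.30 with intermittent CS, continuous CS and air. Of 9 genes of glycogen metabolism none was 1.5-fold apart, which is likewise near the share of all clusters. Gys1, the glycogen synthase gene, was at 12.04, 11.87 and 11.69, and Ugp2, which makes UDP-glucose, at 11.79, 11.62 and 11.37, both in the order intermittent CS, continuous CS and air from high to low. Pgm1 was at 12.71, 12.63 and 12.34, and Gyg, the primer of glycogen synthesis, at 5.96, 5.96 and 5.44. The median of the list was 0.22 for intermittent CS minus air and 0.11 for continuous CS minus air.

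In the citrate cycle, 14 genes were measured and none was 2-fold apart in any comparison. Of all clusters 0.752% to 1.6% were, so the count is near that of clusters in general. Dlst, a subunit of the oxoglutarate dehydrogenase complex, was 1.52-fold higher with intermittent CS than with continuous CS or air, at 8.16, 7.56 and 7.56. Cs, the citrate synthase gene, was at 12.47 with intermittent CS, 12.17 with continuous CS and 12.65 with air, the order of Ldha, with continuous CS the lowest. The succinate dehydrogenase genes Sdha and Sdhb were at 9.28, 9.17 and 8.83 and at 9.59, 9.23 and 9.30. Pdhx, a subunit of the pyruvate dehydrogenase complex, was at 6.66, 6.11 and 6.65.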
